A study of Caenorhabditis elegans with 15 samples.

Results

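The genes described here encode parts of the Caenorhabditis elegans eggshell or proteins of the oocyte that build it. They are cpg-1, cpg-2, cpg-3, chs-1, cbd-1, egg-1, egg-2, perm-2 and perm-4, picked by name, and all 9 were found among the 42048 genes of each deposited table. They were taken in 2 sets: 7 germline-made genes (the cpg and egg genes, chs-1 and cbd-1), and perm-2 with perm-4.

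The nematode eggshell forms around the egg right after fertilization, in layers laid down from the outside inwards. The outermost vitelline layer comes from the coat of the oocyte surface and holds CBD-1, a chitin-binding protein, together with PERM-2 and PERM-4, proteins without which the finished shell leaks. Beneath it lie a chitin layer made by the chitin synthase CHS-1, a layer of the chondroitin proteoglycans CPG-1 and CPG-2, and a lipid-rich permeability barrier. EGG-1 and EGG-2 are paired receptor-like proteins of the oocyte membrane that sperm need in order to fertilize and that organize eggshell secretion afterwards, and CPG-3 is a further secreted chondroitin proteoglycan.

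RNA of whole worms was sequenced on adult day 1 in 15 libraries, 3 for each of 5 groups. Worms of strain SHU47, whose labelled genotype is glp-1, were fed bacteria for hlh-30 RNAi, atg-2 RNAi, atg-18 RNAi or the control RNAi named luc, and worms of strain TU3401 were fed luc. Loss of GLP-1, the Notch receptor that keeps germ stem cells dividing, leaves adults with few or no germ cells and therefore without oocytes, while their somatic gonad remains. TU3401 is a sid-1 mutant in which the unc-119 promoter restores SID-1, the double-stranded RNA channel, in neurons, so that feeding RNAi is meant to act there, and the study's design names the knockdown in glp-1 worms as neuronal too. The labels give no further allele of SHU47. Per the labels, worms of all groups were maintained at 20 °C. The glp-1 allele, any shift to another temperature and the number of worms per library were not found in these labels. No label ties the libraries to separate cultures, so p-values measure only their spread, and this may be technical.

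The libraries held 17496624 to 25599148 reads, and levels are given as RPKM, the reads of a gene scaled by gene length and library size. Library 1 of 3 glp-1 groups stood apart. The median of 22 germ cell and oocyte genes, as a share of their TU3401 mean, was 1.49% in hlh-30 RNAi library 1, 2.44% in atg-2 RNAi library 1 and 0.946% in glp-1 luc library 1, and 0.0283% to 0.0812% in the 9 other glp-1 libraries. The means of the 3 RNAi targets were each higher under their own RNAi label than in glp-1 luc. hlh-30 stood at 126, 293 and 328 RPKM in the libraries labelled hlh-30 RNAi, against 54.6, 44.5 and 50.9 RPKM in glp-1 luc. atg-2 averaged 40.2 ± 2.66 RPKM in the libraries labelled atg-2 RNAi and 30.1 ± 4.19 RPKM in glp-1 luc (SD, n = 3 each). atg-18 stood at 49.1, 81.3 and 116 RPKM in the libraries labelled atg-18 RNAi, against 72.5 ± 5.23 RPKM (SD, n = 3) in glp-1 luc. The RNAi groups are therefore named by their labels only.

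perm-2 and perm-4 were among the most abundant transcripts of worms without oocytes. In all 12 glp-1 libraries both lay above every TU3401 library, at more RNA per kilobase than any of the 7 germline-made eggshell genes reached in any group. perm-2 read 4575, 4595 and 4820.2 RPKM in the libraries labelled hlh-30 RNAi. In those labelled atg-2 RNAi it read 4994, 4682 and 4898 RPKM. In those labelled atg-18 RNAi it read 4851, 4755 and 5130.1 RPKM. The 9 RNAi libraries thus spanned a narrow band. In glp-1 luc perm-2 read 4541, 4386 and 4708 RPKM, against 1859, 1969.6 and 1992 RPKM in TU3401 luc. By group mean, perm-2 took rank 18 of all genes in glp-1 luc and rank 73 in TU3401 luc.

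perm-4, whose product acts with PERM-2 in the vitelline layer, was likewise higher in all glp-1 groups than in TU3401, at a slightly lower level per length. It read 4227, 4228 and 4248 RPKM in the libraries labelled hlh-30 RNAi and 4637, 4167 and 4535 RPKM in those labelled atg-2 RNAi. It read 4624, 4346 and 4585 RPKM in those labelled atg-18 RNAi. In glp-1 luc it read 4276, 4044 and 4439 RPKM, against 1571, 1674 and 1582 RPKM in TU3401 luc. The glp-1 luc libraries overlapped all 3 RNAi groups, and TU3401 lay far below. perm-4 took rank 21 in glp-1 luc and rank 97 in TU3401 luc.

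Among the 4 glp-1 groups the order of perm-2 means was atg-18 RNAi (4912 ± 195 RPKM), atg-2 RNAi (4858 ± 159.9 RPKM), hlh-30 RNAi (4663 ± 136 RPKM) and luc (4545 ± 161 RPKM; SD, n = 3 each). Each mean was closer to the next in this order than 1 SD, except that atg-2 and hlh-30 RNAi lay slightly farther apart. For perm-4 the order was atg-18 RNAi (4518 ± 151 RPKM), atg-2 RNAi (4446 ± 247 RPKM), luc (4253 ± 198 RPKM) and hlh-30 RNAi (4234 ± 12.1 RPKM; SD, n = 3 each), with every neighbouring pair of groups overlapping. TU3401 came last for both genes, at 1940.3 ± 71.1 RPKM for perm-2 and 1609 ± 56.3 RPKM for perm-4 (SD, n = 3 each), separated from all glp-1 groups by many times the spread.

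**Figure D1:**
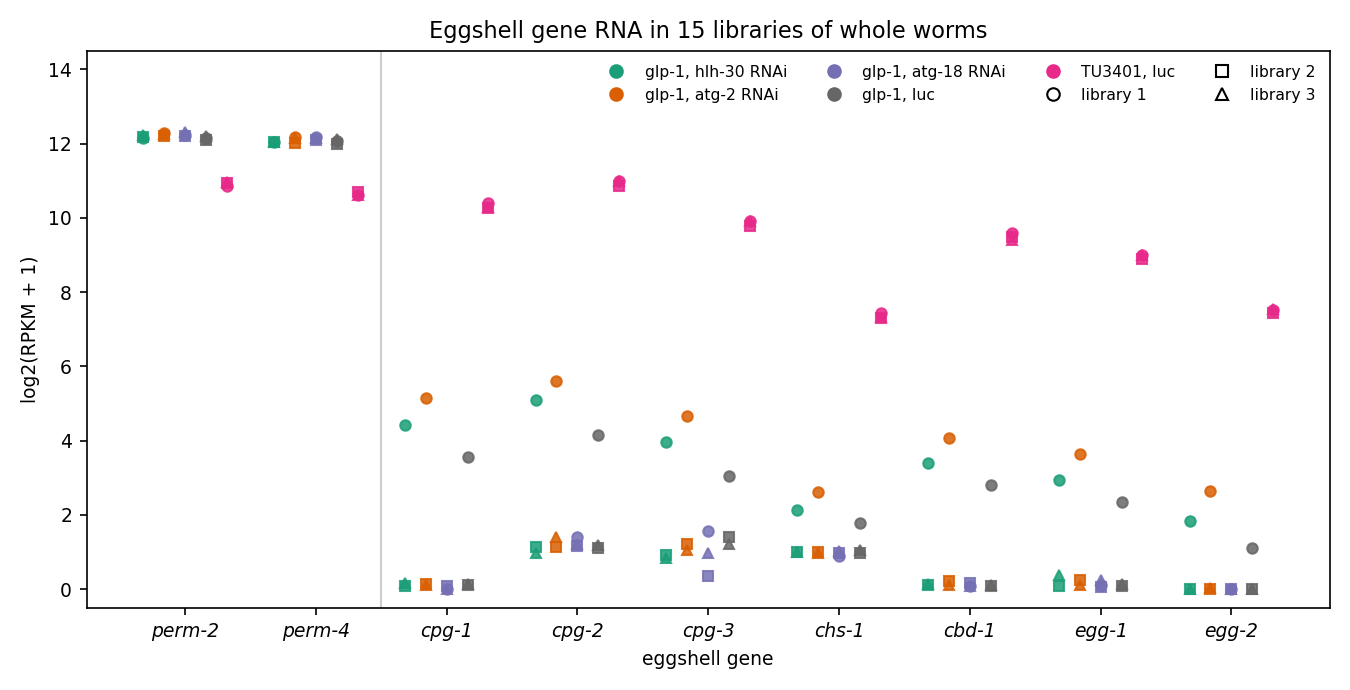
Level of each eggshell gene in each of the 15 libraries, as log2(RPKM + 1) on the vertical axis. Colours mark the 5 groups, circles, squares and triangles mark libraries 1, 2 and 3, and every point is 1 library. perm-2 and perm-4 lie near 12 in all glp-1 libraries and near 11 in TU3401, whereas the 7 germline-made genes lie between 7 and 11 in TU3401 and below 6 in every glp-1 library, with library 1 of 3 groups above its partners.

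The 7 germline-made genes were abundant in TU3401 and close to absent from glp-1 worms. The proteoglycan genes came first. cpg-2 read 16.8, 1.15 and 1.28 RPKM in glp-1 luc, against 2046, 1865 and 2023 RPKM in TU3401 luc, the highest level among the 7. cpg-1 read 10.8, 0.0911 and 0.0977 RPKM in glp-1 luc, against 1344, 1237 and 1259.9 RPKM in TU3401 luc. cpg-3 read 7.27, 1.64 and 1.32 RPKM in glp-1 luc, against 961, 877 and 972 RPKM in TU3401 luc. For all 3 genes the highest glp-1 luc value was that of library 1, and no glp-1 luc library came near TU3401.

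cbd-1, the vitelline layer gene whose product PERM-2 and PERM-4 join, read 6.04, 0.0539 and 0.0866 RPKM in glp-1 luc, against 768, 717 and 679.7 RPKM in TU3401 luc. chs-1, the gene of the eggshell chitin synthase, read 2.47, 0.954 and 1.09 RPKM in glp-1 luc, against 171, 157 and 160.1 RPKM in TU3401 luc. Both were therefore highest in library 1 within glp-1 luc, and neither group overlapped the other.

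The oocyte membrane genes had the same pattern. egg-1 read 4.07, 0.0644 and 0.104 RPKM in glp-1 luc, against 511, 470.1 and 509.6 RPKM in TU3401 luc. egg-2 read 1.14 RPKM in glp-1 luc library 1 and 0 in libraries 2 and 3, against 184, 172 and 186 RPKM in TU3401 luc. The egg-1 level was 2.73 to 2.77 times that of egg-2 per length in the 3 TU3401 libraries. egg-1 and egg-2 are close paralogs, and reads that match both could have been split or dropped in the authors' counting, so this ratio and the separate levels are uncertain.

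Within TU3401 the order of the 9 genes by mean RPKM was cpg-2 (1978 ± 98.6), perm-2, perm-4, cpg-1 (1280.3 ± 56.6), cpg-3 (937 ± 52.1), cbd-1 (722 ± 44.4), egg-1 (497 ± 23.1), egg-2 (181 ± 7.38) and chs-1 (163 ± 7.74; SD, n = 3 each). Only cpg-2 and perm-2 overlapped among neighbours in this order. Summed over each set, perm-2 and perm-4 made up 36.4% to 39.9% of the RPKM of the 9 genes in TU3401. In the glp-1 groups they made up 98.5% to 99.97%. The sum over the 9 genes was 8825 to 9775 RPKM in the RNAi groups, 8434 to 9151 RPKM in glp-1 luc and 9138 to 9417 RPKM in TU3401 luc.

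The difference between glp-1 and TU3401 worms on luc addresses what is left of each transcript in SHU47 worms beside those of TU3401. It was tested by limma on log2(RPKM + 1) with Benjamini-Hochberg adjustment over all 13569 genes with a mean of at least 1 RPKM. All 9 eggshell genes passed at an adjusted p under 0.05, 2 higher and 7 lower. Of all genes tested 89.7% passed, 41.4% as higher and 48.3% as lower, so passing alone sets these genes apart from few others. The groups did not overlap for any of the 9 genes, as for 90.2% of all genes. The 7 germline-made genes lay far from the median of all genes, which was -0.19. perm-2 and perm-4, at 1.23 and 1.40, lay beside medians of 1.18 for somatic gonad, 1.14 for intestine and 1.81 for muscle genes, listed below. In whole worms, fewer cells of a type and less RNA per cell cannot be told apart. Nor can germline loss be told apart from any other difference between the strains or their rearing.

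cpg-1 had the most negative value on this scale, at -9.05 ± 0.88 (log2, SE, adjusted p = 3.35e-05). cpg-2 changed by -8.80 ± 0.77 (adjusted p = 1.83e-05), cbd-1 by -8.49 ± 0.69 (adjusted p = 1.24e-05) and egg-1 by -8.10 ± 0.57 (adjusted p = 5.16e-06). cpg-3 changed by -7.99 ± 0.45 (adjusted p = 1.43e-06), egg-2 by -7.14 ± 0.29 (adjusted p = 2.50e-07) and chs-1 by -6.08 ± 0.21 (adjusted p = 1.24e-07). Each of the 7 fell in 3 of 3 libraries. The added 1 in log2(RPKM + 1) shrinks these values, since the levels in glp-1 luc libraries 2 and 3 lie near or below 1 RPKM, and sets their order in part: as a share of the TU3401 mean, egg-2 had less left in glp-1 luc than cpg-1, at 0.211% and 0.287%. Without glp-1 luc library 1, cpg-1, cpg-2, cbd-1 and egg-1 stood at -10.19, -9.80, -9.40 and -8.84, and cpg-3, egg-2 and chs-1 at -8.57, -7.50 and -6.34. The median of the 7 germline-made genes was -8.10, and that of the 22 germ cell and oocyte genes was -7.50.

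perm-2 rose by 1.23 ± 0.056 (SE, adjusted p = 4.76e-07) and perm-4 by 1.40 ± 0.059 (adjusted p = 2.98e-07) on the RPKM scale, each in 3 of 3 libraries, but their direction turned to -0.30 and -0.13 after neuronal and muscle scaling, which gives all libraries the same summed RPKM of 20 pan-neuronal and 20 muscle genes. That scaling shifted the difference of all genes by a median of -1.44. Under it perm-2 was lower (adjusted p = 0.00866), perm-4 did not pass (adjusted p = 0.215), and the 7 germline-made genes lay at -7.53 to -10.46. Of 14760 genes tested with this scaling 9445 were lower and 1674 higher, with a median of -1.46. perm-2 was thus lower along with most genes, and perm-2 and perm-4 both lay above the median gene. RPKM is a share of the library, and the share of called genes that were higher was 46.1% on the RPKM scale and 15.1% with this scaling. As levels, perm-2 and perm-4 stood in glp-1 luc at 234% and 264% of their TU3401 mean. The same share was 331% to 391% for the median muscle gene in glp-1 luc and 200.04% to 224% for the median pan-neuronal gene.

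**Figure D2:**
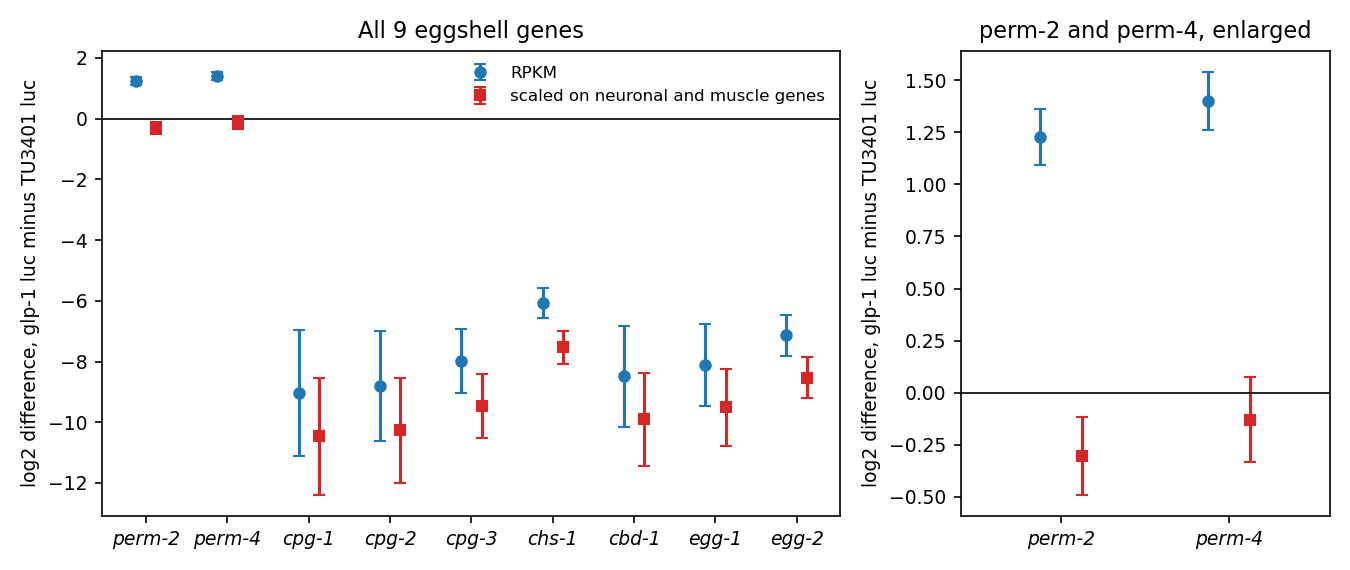
Difference between glp-1 luc and TU3401 luc for each eggshell gene as log2(RPKM + 1), with 95% confidence intervals from limma (n = 3 libraries each). Blue circles use RPKM and red squares use libraries scaled to equal summed RPKM of neuronal and muscle genes; the right panel enlarges perm-2 and perm-4, which lie at 1.23 and 1.40 on RPKM and at -0.30 and -0.13 when scaled, while the other 7 genes lie at or below -6.08 under both.

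In the authors' deposited table for the same groups, the log2 fold changes were 1.42 for perm-2 and 1.59 for perm-4. The authors' deposited table gives -8.26 for cpg-1, -8.08 for cpg-2, -7.92 for cpg-3, -8.27 for cbd-1, -8.28 for egg-1, -8.72 for egg-2 and -6.57 for chs-1. These have the same sign as the values above for all 9 genes, but the most negative is egg-2 and not cpg-1.

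perm-2 and perm-4 also shifted slightly against each other. The ratio of perm-2 to perm-4 RPKM was 1.08 to 1.13 under the hlh-30 RNAi label, 1.08 to 1.12 under atg-2 RNAi and 1.05 to 1.12 under atg-18 RNAi. It was 1.06 to 1.08 in glp-1 luc, against 1.18 to 1.26 in TU3401 luc. No glp-1 library reached the TU3401 range, and this ratio does not depend on how libraries are scaled. In the WBcel235 annotation the 2 genes are direct neighbours among coding genes on chromosome IV, on opposite strands and pointing away from each other. Across the 12 glp-1 libraries their log2 levels had a Pearson correlation of 0.854, a description over libraries of 1 strain that share preparation and depth effects.

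The remaining RNA of the germline-made genes in glp-1 worms differed more between libraries than between RNAi labels. In library 1 of the hlh-30 RNAi group the 7 genes stood at 1.31% to 2.09% of their TU3401 mean. In library 1 of the atg-2 RNAi group they stood at 2.17% to 3.13%, and in glp-1 luc library 1 at 0.632% to 1.52%. Library 1 of the atg-18 RNAi group had no such excess, with 0 reads for cpg-1 and egg-2 and 0.536% for chs-1. These 3 libraries stood in the same order as for the 22 germ cell and oocyte genes.

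Taken as the excess of library 1 over the mean of libraries 2 and 3 of its group, the 7 genes lay close together. The excess was 1.30% to 1.62% of the TU3401 mean for the hlh-30 RNAi group, 2.16% to 2.91% for the atg-2 RNAi group and 0.618% to 0.890% for glp-1 luc. For the atg-18 RNAi group it was -0.0905% to 0.143%, that is, on both sides of 0. The proportions between genes in these libraries were near those of TU3401 for some pairs and less so for others. cpg-2 stood at 1.61, 1.40 and 1.55 times cpg-1 in library 1 of the hlh-30 RNAi, atg-2 RNAi and luc groups, against 1.51 to 1.61 times in TU3401 luc. egg-1 stood at 2.60, 2.16 and 3.56 times egg-2 in the same libraries, from 107, 207 and 38 egg-2 reads, against 2.73 to 2.77 times in TU3401 luc.

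**Figure D3:**
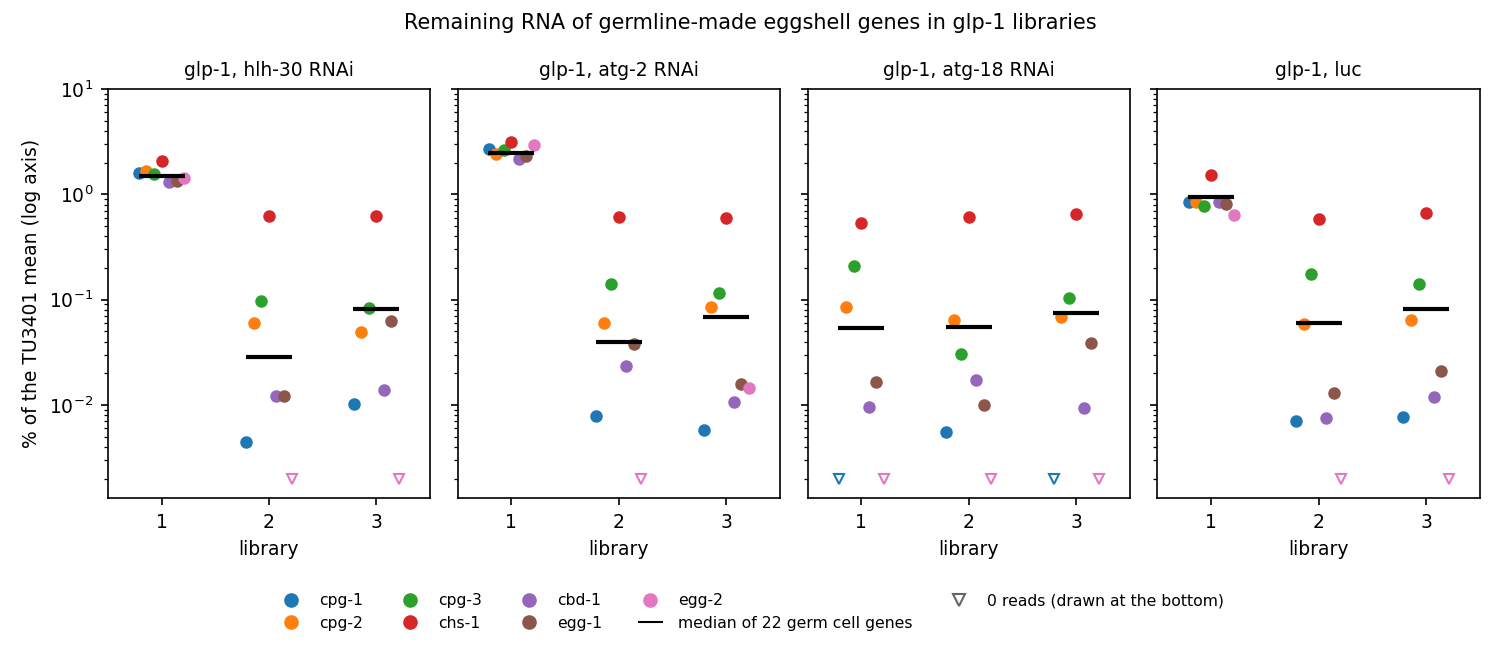
RNA of the 7 germline-made eggshell genes left in each glp-1 library, in percent of the TU3401 mean on a log axis. Each panel is 1 glp-1 group, points are genes, open triangles mark 0 reads and the black bar is the median of 22 germ cell and oocyte genes. Library 1 of the hlh-30 RNAi, atg-2 RNAi and luc groups lies between 0.632% and 3.13%, and in the other libraries chs-1 stays between 0.536% and 0.671% while the other 6 genes lie at or below 0.210%.

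In the 8 glp-1 libraries numbered 2 and 3 the germline-made genes parted into those with a steady trace and those with almost none. chs-1 held 0.954 to 1.09 RPKM, from 70 to 101 reads, which was 0.586% to 0.671% of its TU3401 mean. cpg-2 held 0.980 to 1.67 RPKM from 27 to 61 reads, and cpg-3 held 0.283 to 1.64 RPKM from 6 to 27 reads. At 0.0495% to 0.0846% and 0.0302% to 0.175% of their TU3401 means, both were below chs-1 in every one of these libraries. The vitelline layer gene cbd-1 had 4 to 15 reads in each of these libraries, egg-1 had 2 to 9 and cpg-1 had 0 to 4. egg-2 had 1 read in 1 of the 8 libraries and 0 in the other 7; a count of 0 still allows up to 3 reads per library. chs-1 reads of this number are not at the counting limit, whereas no order can be read among cbd-1, egg-1 and cpg-1 at this depth. egg-2 had fewer reads than egg-1 in each of the 8 libraries, at lengths of 1647 and 1656 bases. Intervals of this kind cover counting error only.

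Next, each RNAi label was set against glp-1 luc, the question being what knockdown in neurons of germline-less worms changes. These 3 comparisons share the glp-1 luc libraries, so their values are not independent of each other. For hlh-30 RNAi 8 of the 9 genes passed the filter on low values (egg-2 did not) and 0 changed, where limma called 0.088% of 12494 genes. For atg-2 RNAi all 9 passed the filter and 0 changed. For atg-18 RNAi 7 passed it (egg-1 and egg-2 did not) and 0 changed. In none of the 3 did an eggshell gene reach even an unadjusted p under 0.05 in limma. Limma called 0% of 12548 genes for atg-2 RNAi and 0% of 12441 genes for atg-18 RNAi at an adjusted p under 0.05, with 961 and 850 genes at an unadjusted p under 0.05.

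The intervals for the abundant pair were narrow. perm-2 differed from glp-1 luc by 0.037 (95% interval -0.076 to 0.15, adjusted p = 0.874) in the libraries labelled hlh-30 RNAi. For atg-2 RNAi the perm-2 difference was 0.096 (-0.015 to 0.21, adjusted p = 0.700). For atg-18 RNAi it was 0.11 (-0.012 to 0.24, adjusted p = 0.728). The 3 libraries labelled atg-18 RNAi all lay above the 3 of glp-1 luc for perm-2, which was also so, in either direction, for 11.8% of genes in that comparison. perm-4 differed by -0.0054 (-0.12 to 0.11, adjusted p = 0.986) for hlh-30 RNAi, by 0.064 (-0.076 to 0.20, adjusted p = 0.902) for atg-2 RNAi and by 0.088 (-0.041 to 0.22, adjusted p = 0.787) for atg-18 RNAi. The sign of perm-2 for hlh-30 RNAi, and of perm-4 for atg-2 and atg-18 RNAi, turned after neuronal and muscle scaling. These are log2 values from limma, and none exceeds the spread between libraries by the test used.

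cpg-1 shows how wide the intervals were for the germline-made genes. It read 20.6, 0.0566 and 0.130 RPKM in the libraries labelled hlh-30 RNAi, 34.3, 0.101 and 0.0738 RPKM in those labelled atg-2 RNAi and 0, 0.0708 and 0 RPKM in those labelled atg-18 RNAi, against 10.8, 0.0911 and 0.0977 RPKM in glp-1 luc. For hlh-30 and atg-2 RNAi, library 1 alone sets which group mean is higher. Under atg-18 RNAi the 3 libraries lay below the 3 of glp-1 luc. In that comparison 11.8% of all genes did not overlap, in either direction. Without library 1 of glp-1 luc the separation was 0, 3 and 0 reads against 3 and 4 reads, too few to read a difference from. The log2 difference was 0.29 (95% interval -2.99 to 3.56, adjusted p = 0.975) for hlh-30 RNAi, 0.52 (-3.22 to 4.26, adjusted p = 0.979) for atg-2 RNAi and -1.24 (-3.35 to 0.86, adjusted p = 0.819) for atg-18 RNAi. Without library 1 of the RNAi group the first 2 of these were -1.15 each. None of the 9 genes has a false discovery rate under 0.05 in the authors' deposited tables of these 3 comparisons. In the authors' deposited table for atg-18 RNAi, all 7 germline-made genes have a negative log2 fold change with an unadjusted p under 0.05. The share of all genes with such a p in that table was not computed. Within glp-1 luc all 7 were highest in library 1. Libraries 2 and 3 of glp-1 luc lay above all 3 atg-18 RNAi libraries only for cpg-1. For cpg-1 the authors' deposited table gives -6.89 with p = 0.000153 and a false discovery rate of 0.0868. For the other 6 the authors' deposited table gives -0.61 (chs-1, p = 0.0196) to -6.69 (egg-2, p = 0.00255), with false discovery rates of 0.168 or more. The summed level of the germ cell and oocyte genes was at most 24.7 RPKM in the libraries labelled atg-18 RNAi. In glp-1 luc libraries 1, 2 and 3 it was 113, 20.7 and 23.3 RPKM. The sum was thus higher in glp-1 luc through library 1 alone, as libraries 2 and 3 lay below the highest atg-18 RNAi library. Of the 22 genes 3 to 5 were at 0 in the atg-18 RNAi libraries and 0 to 3 in glp-1 luc. The part of this germ cell RNA in the eggshell gene values was not tested.

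The other germline-made genes were, like cpg-1, highest in library 1 of the hlh-30 and atg-2 RNAi groups. cpg-2 read 33.2, 1.20 and 0.980 RPKM under the hlh-30 RNAi label, 47.9, 1.18 and 1.67 RPKM under atg-2 RNAi and 1.68, 1.26 and 1.35 RPKM under atg-18 RNAi. cpg-3 read 14.7, 0.904 and 0.780 RPKM under hlh-30 RNAi, 24.6, 1.31 and 1.08 RPKM under atg-2 RNAi and 1.97, 0.283 and 0.966 RPKM under atg-18 RNAi. Leaving library 1 aside, cpg-2 lay between 0.980 and 1.67 RPKM and cpg-3 between 0.283 and 1.64 RPKM in all glp-1 groups. chs-1 read 3.40, 1.01 and 1.01 RPKM under hlh-30 RNAi, 5.09, 0.993 and 0.969 RPKM under atg-2 RNAi and 0.871, 0.981 and 1.06 RPKM under atg-18 RNAi. Outside the 3 libraries with excess, the chitin synthase gene thus varied little.

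cbd-1 read 9.47, 0.0878 and 0.101 RPKM under hlh-30 RNAi, 15.7, 0.168 and 0.0764 RPKM under atg-2 RNAi and 0.0689, 0.125 and 0.0670 RPKM under atg-18 RNAi. egg-1 read 6.67, 0.0600 and 0.311 RPKM under hlh-30 RNAi, 11.4, 0.187 and 0.0783 RPKM under atg-2 RNAi and 0.0824, 0.050 and 0.192 RPKM under atg-18 RNAi. egg-2 read 2.56, 0 and 0 RPKM under hlh-30 RNAi, 5.27, 0 and 0.0262 RPKM under atg-2 RNAi and 0 in all 3 libraries under atg-18 RNAi. With libraries 2 and 3 of each group alone these 3 genes stayed at or below 0.311 RPKM, and all 12 glp-1 libraries lay below the 3 of TU3401.

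The RNAi groups were also compared directly with each other, in 1 fit of the 12 glp-1 libraries. None of the 8 eggshell genes that passed the filter reached an adjusted p under 0.05 in limma, or an unadjusted p under 0.05, between hlh-30 and atg-2 RNAi (1.01% of 12460 genes called), between hlh-30 and atg-18 RNAi (1.02% called) or between atg-2 and atg-18 RNAi (0.0161% called). egg-2 did not pass the filter in this fit.

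Other genes of eggshell formation were read from lists of known members. Of 11 genes of chitin precursor synthesis, egg activation, yolk uptake and permeability 10 were lower and 1 was higher in glp-1 luc than in TU3401 luc, with a median of -5.95 against -0.19 for all genes. gfat-2, which starts the synthesis of the amino sugar used for chitin, fell by 8.22 on the log2 scale, and rme-2, the yolk receptor of oocytes, fell by 7.97. egg-4, a regulator of the oocyte-to-embryo transition with a close paralog that can share its reads, fell by 6.87. At 0.574 RPKM in glp-1 luc, egg-4 passed the filter only through TU3401, as did other listed genes, and such genes could only be lower. gna-1, the somatic counterpart of the chitin precursor gene gna-2, was higher by 0.38 but lay at -1.06 after neuronal and muscle scaling, where all 11 were lower.

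All 9 genes that build chondroitin chains were lower too, but by less, with a median of -2.45. sqv-5, the chondroitin synthase, fell to 12.1 RPKM in glp-1 luc, against 117 RPKM in TU3401 luc (-3.18). sqv-4, which makes the precursor sugar UDP-glucuronic acid, changed by -3.05, and sqv-1, which converts that sugar further, by -2.53. The synthesis genes therefore kept more of their RNA in glp-1 worms than the eggshell core proteins cpg-1 and cpg-2 did, as levels of whole worms.

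The core protein genes outside the eggshell set did not share 1 direction. Of 6 further chondroitin core protein genes listed, 4 were found under the names used, and the others were not measured. cpg-4 and cpg-8 fell by 5.56 and 3.84, where cpg-4, at 0.778 RPKM in glp-1 luc, passed the filter only through TU3401. cpg-7 averaged 190.5 RPKM in glp-1 luc and 23.4 RPKM in TU3401 luc, higher by 3.03 on the RPKM scale (adjusted p = 1.01e-05) and by 1.54 after that scaling (adjusted p = 0.00115). cpg-9 was higher by 1.47 on the RPKM scale but lay at -0.05 when scaled. The median of these 4 was -1.18.

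For the lipid-rich permeability barrier 7 genes were listed, most but not all of them genes of lipid enzymes and their partners. On the RPKM scale 4 were lower, 2 were higher and 1, emb-8, did not pass (-0.15, adjusted p = 0.156), with a median of -1.04. When scaled, 6 were lower and 0 higher, with a median of -2.57, and emb-8 was lower too (-1.67, adjusted p = 1.22e-05). The cytochrome P450 genes cyp-31A2 and cyp-31A3, near-identical copies that can share reads, changed by -6.38 and -5.37, and dgtr-1, an acyltransferase gene, by -5.38. In glp-1 luc they lay at 0.276, 0.495 and 0.424 RPKM in that order. They thus passed the filter only through TU3401 and could only be lower. pod-2, which encodes acetyl-CoA carboxylase, and fasn-1, which encodes fatty acid synthase, both also used throughout the soma, were higher by 1.50 and 0.86 on the RPKM scale and lay at -0.02 and -0.66 when scaled.

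**Figure D4:**
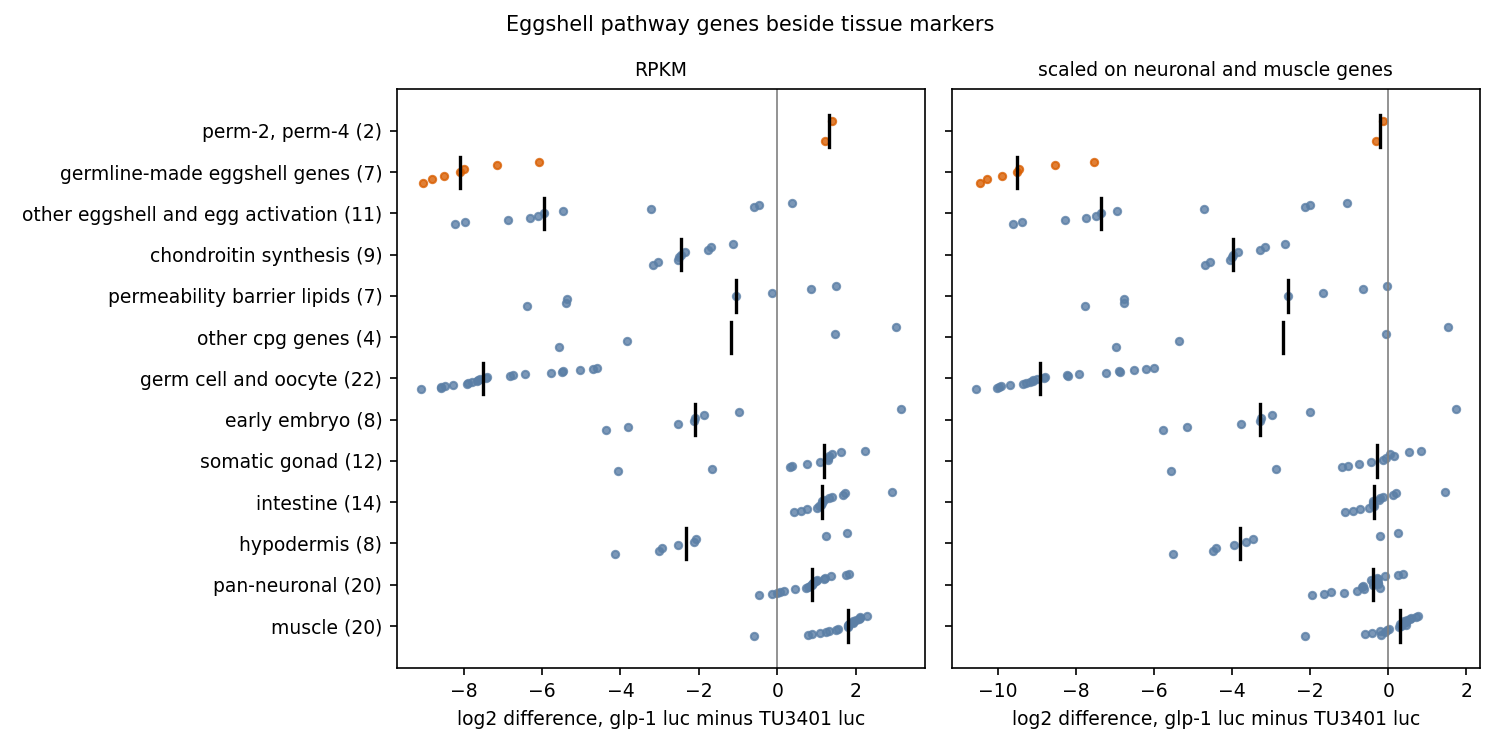
Difference between glp-1 luc and TU3401 luc as log2(RPKM + 1) for the genes of each list, on RPKM (left) and with libraries scaled on neuronal and muscle genes (right). Points are genes, black bars are list medians and the number of genes tested stands in brackets; eggshell genes are orange. The germline-made eggshell genes lie with the germ cell and oocyte genes, at medians of -8.10 and -7.50 on RPKM. Under both scales perm-2 and perm-4 lie between the pan-neuronal and muscle medians and near those of somatic gonad and intestine. This does not tell these tissues apart.

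Markers of the tissues that could hold these transcripts were measured in the same comparison. All 22 germ cell and oocyte genes were lower. Of 12 genes of the gonadal sheath, spermatheca and distal tip cell 9 were higher, 2 were lower and 1 did not pass, with a median of 1.18 on RPKM and -0.29 when scaled, where 2 were higher and 6 lower. itr-1, fkh-6 and ceh-18 were highest in this list at 2.25, 1.63 and 1.40, with 0.83, 0.53 and 0.05 when scaled. The 2 lower genes were apx-1, which is also a maternal gene, at -4.07, and lag-2 at -1.66 (adjusted p = 1.70e-05). When scaled they lay at -5.56 and -2.88. lag-2 stood at 0.460 RPKM in glp-1 luc and 3.58 RPKM in TU3401 luc, so it passed the filter only through TU3401. Of 14 intestinal genes 13 were higher and 1 did not pass, with a median of 1.14 on RPKM and -0.38 when scaled, where 1 was higher and 8 were lower. The scaled counts stand beside 9445 lower and 1674 higher among all 14760 genes tested when scaled. Of 8 tested hypodermal genes 2 were higher and 6 lower, with a median of -2.32 (-3.64 when scaled, where 0 were higher and 7 lower). The summed RPKM of the 10 listed hypodermal genes went the other way, at 1151 to 1536 in glp-1 luc and 494 to 630 in TU3401 luc. Only 3 of 10 sperm genes were abundant enough to test, and all 3 were lower. Of 8 tested genes of early embryonic transcription 7 were lower and 1, sdz-24, was higher, by 3.14 on RPKM and by 1.73 when scaled. In each comparison among glp-1 groups only 1 gene of each of these 2 lists passed the filter. Genes that passed here through their TU3401 level alone could only be lower, so these 2 counts are not evidence of a fall. The same limit holds for germ cell and oocyte genes under 1 RPKM in glp-1 luc, such as htp-3 (0.164 RPKM).

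The perm-2 and perm-4 differences of 1.23 and 1.40 on RPKM thus lay near the medians of the somatic gonad and intestine lists. They lay between the pan-neuronal median of 0.88 and the muscle median of 1.81. When scaled they were -0.30 and -0.13, beside medians of -0.29 (somatic gonad), -0.38 (intestine), -0.39 (pan-neuronal) and 0.31 (muscle). The pan-neuronal list was then about as near as the intestine list. The scaling multiplies all genes of a library alike, so the 2 scales are not separate support. Which somatic cells hold this RNA was not tested.

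Finally, the genes whose level moved most like each eggshell gene across the 12 glp-1 libraries were listed among 8561 genes with a mean of at least 5 RPKM, by Pearson correlation of log2(RPKM + 1). For perm-2 these were C53H9.2 (0.918), mak-1 (0.911), eftu-2 (0.909), dao-3 (0.904) and nol-5 (0.902). For perm-4 they were scl-12 (0.896), ttr-46 (0.894), C54G10.4 (0.889), Y73B6BL.4 (0.881) and spp-14 (0.878). No gene was on both lists. For cpg-2 they were pos-1 (0.997), cpg-1 (0.996), sip-1 (0.995), clec-87 (0.991) and iff-1 (0.991), of which pos-1 is a maternal regulator and iff-1 a germline translation factor. The cpg-2 values rest on library 1 of 3 groups: over the 8 libraries numbered 2 and 3 they were 0.526, -0.478, -0.227, -0.452 and 0.596. Over the same 8 libraries the perm-2 list stood at 0.893 to 0.954 and the perm-4 list at 0.820 to 0.904. All lists were picked as the highest of 8561 genes over 12 libraries that include these 8. High values there follow in part from that choice and are no check of it.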

How the data were processed

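The authors deposited 4 tables of RPKM values for 2 groups each, 3 libraries a group. The glp-1 luc columns recur in all 4, and 0 values differed between copies. Per the file headers, each table also holds the authors' log2 fold change, p-value, false discovery rate and a ranking score. How those were tested, how reads were counted and whether strand was used were not given in the sources used here; of software, the processing notes of the submitters name bcl2fastq, TopHat2 2.1.1 and GRCh38, a human build, so no coordinates are printed. WBcel235 served for names (40200 of 42048 matched), neighbours and lengths.

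Deposited RPKM values were whole multiples of 1 read's worth for 24620 of 24620 detected genes (100.0%, to within 0.0001 of a read), which returned the reads quoted. For all 9 eggshell genes the length behind these steps equalled the coding length in WBcel235, so untranslated regions add nothing to their lengths.

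Tests were run with limma 3.58.1 (R 4.3.3), with the mean-variance trend, on log2(RPKM + 1). Genes entered a fit at a mean of 1 RPKM or more, and p-values were adjusted after Benjamini and Hochberg over all of them, with a threshold of 0.05. A gene with a mean under 1 RPKM in glp-1 luc, as egg-2 and genes of several lists had, entered the comparison with TU3401 only through TU3401. Such a gene could only be lower in glp-1 luc. Comparisons with luc used 6 libraries, direct RNAi contrasts 12. The code was tested on simulated data. With 3 against 3 libraries an exact permutation test of 1 gene cannot go below 0.1, so none is given. Libraries of a group differed in their reads beyond sampling noise, with a chi-square of at least 6.41 per degree of freedom and 0 identical pairs.

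Eggshell genes and all lists were chosen with earlier results of these data known. All 9 eggshell genes are named. Other lists give counts and up to 3 called genes each way with the largest change between glp-1 luc and TU3401 luc, and likeness gives 5 genes each for perm-2, perm-4 and cpg-2. emb-8, the only listed lipid gene that did not pass on the RPKM scale, was named after its value was seen. Replicate numbers were taken to pair libraries where all 3 correlations of deviations exceeded 0.1, which held for atg-2 RNAi with luc (0.402, 0.264 and 0.200) and for the 3 pairs of RNAi groups (0.151 to 0.504). Alternatives were another pseudocount, filters, scalings, no trend, the replicate block, all glp-1 libraries in 1 fit and leaving libraries out. Using libraries 2 and 3 only was added after seeing the data. Tables and figures were made in Python 3.11.15 using numpy 2.4.6, pandas 2.3.3 and matplotlib 3.10.9.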

Additional observations from a re-analysis of the deposited data

How the results depend on the processing

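Of the 9 eggshell genes called between glp-1 luc and TU3401 luc, 9 were called under every alternative except the scaling on neuronal and muscle genes, with 8. In the 6 comparisons among glp-1 groups 0 were called under every alternative run. That scaling reversed perm-2 (-0.30) and perm-4 (-0.13) between glp-1 luc and TU3401 luc, perm-2 for hlh-30 RNAi (-0.044) and perm-4 for atg-2 RNAi (-0.00013) and atg-18 RNAi (-0.015); the cause was not tested. perm-4 for hlh-30 RNAi was 0.00027 with libraries 2 and 3 only, and ranged from -0.041 to 0.026 when 1 library was left out. cpg-1 ranged from -1.15 to 1.43 for hlh-30 RNAi and from -1.15 to 1.66 for atg-2 RNAi when 1 library was left out, with signs set by library 1. With the replicate number as a block, 9 eggshell genes were called between glp-1 luc and TU3401 luc and 0 in the other 6 comparisons, so the pairing changed no call. cpg-1, cbd-1, egg-1 and egg-2 are limited by depth in glp-1 worms, where libraries 2 and 3 held 0 to 15 reads of each.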
